A study of Mus musculus with 4 samples.

Results

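The genes described here are 10 genes enriched in neurons of the thalamus, measured by RNA sequencing in tissue of the parasubthalamic nucleus of naive C57BL/6 mice. They are Tcf7l2, Lef1, Shox2, Gbx2, Prkcd, Rgs16, Plekhg1, Tnnt1, Synpo2 and Adarb1, taken by symbol from the 25044 entries of the expression tables. This nucleus sits in the posterior lateral hypothalamus, next to the subthalamic nucleus. The 4 libraries, replicates 1 to 4, form 1 untreated group. No stressed animals were sequenced, and the labels used here give no sex, age or dissection details, name the tissue as brain, and do not say whether the libraries came from separate animals. The series concerns PACAP and its receptor in stress-induced anxiety and used these libraries to find genes abundant in the nucleus. The 10 genes were selected on their FPKM values in these libraries, for standing high in replicate 3, so their levels are given as a description with no p-value. All 10 were found, and all passed the filter of a mean of 0.1 FPKM both over the 4 libraries and over replicates 1, 2 and 4 alone.

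The thalamus relays sensory and motor signals to the cortex through glutamatergic projection neurons, called relay neurons. In the embryo these cells arise in the caudal part of the diencephalon, where Wnt signals act through beta-catenin and the DNA-binding partners TCF7L2 and LEF1, and TCF7L2 stays on in adult thalamic neurons. The homeodomain factors GBX2 and SHOX2 also mark thalamic neurons during their differentiation. In the adult mouse brain Prkcd, the gene of protein kinase C delta, and Tnnt1, the slow skeletal muscle troponin T, are widely used thalamic markers. Several of the genes also have other sources in brain tissue: Tcf7l2 is found in differentiating oligodendrocytes, Lef1 and Plekhg1 in blood vessel cells, Synpo2 in smooth muscle, and Adarb1 in neurons of many regions.

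The genes lie at 10 separate loci on 6 chromosomes of GRCm38, the assembly named by the authors. Prkcd (ENSMUSG00000021948) lies at chr14:30595354-30626210 on the minus strand and Tnnt1 (ENSMUSG00000064179) at chr7:4504570-4516382 on the minus strand. Tcf7l2 (ENSMUSG00000024985) lies at chr19:55741820-55933654 on the plus strand. Lef1 (ENSMUSG00000027985), Shox2 (ENSMUSG00000027833) and Synpo2 (ENSMUSG00000050315) share chromosome 3 but are far apart, with Lef1 at chr3:131110471-131224356 on the plus strand, Shox2 at chr3:66971727-66981771 on the minus strand and Synpo2 at chr3:123076519-123236149 on the minus strand. Gbx2 (ENSMUSG00000034486) and Rgs16 (ENSMUSG00000026475) are on chromosome 1, at chr1:89927956-89931179 on the minus strand and chr1:153740349-153745468 on the plus strand. Adarb1 (ENSMUSG00000020262) and Plekhg1 (ENSMUSG00000040624) are on chromosome 10, at chr10:77290726-77418270 on the minus strand and chr10:3740364-3967303 on the plus strand. All are protein-coding in GENCODE M21. Of the genes annotated as overlapping a member, only Rsrc1 is listed in the tables. It shares 382 bases with the start of Shox2 on the other strand and lay at 28.7 FPKM in replicate 3, against 20.2, 21.0 and 23.1 FPKM in replicates 1, 2 and 4. Because the use of strand in counting is not given, reads from such an overlap cannot be told apart.

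Promoter sequences are shown for 5 genes because these genes stood high in the same library and differ most in how far: Prkcd and Tnnt1 differed most, Shox2 and Synpo2 lay between, and Adarb1 differed least. Each line gives the 250 bases before the annotated start, 5′ to 3′ on the strand of the gene, from RefSeq on GRCm38.p6. Capitals mark 3 letter patterns searched on both strands, which do not overlap in these windows. The core recognised by TCF and LEF proteins was searched as CTTTGA, which reads TCAAAG on the opposite strand. A core shared by many homeodomain proteins was searched as TAATTA, which reads the same on both strands. The TATA box was searched as TATAAA, which reads TTTATA on the opposite strand.
Tnnt1, chr7:4515976-4516225, minus strand: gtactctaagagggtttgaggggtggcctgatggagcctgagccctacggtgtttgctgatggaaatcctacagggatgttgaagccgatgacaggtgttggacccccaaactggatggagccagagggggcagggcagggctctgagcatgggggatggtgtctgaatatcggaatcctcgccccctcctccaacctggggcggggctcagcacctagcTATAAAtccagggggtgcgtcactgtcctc
Prkcd, chr14:30626209-30626458, minus strand: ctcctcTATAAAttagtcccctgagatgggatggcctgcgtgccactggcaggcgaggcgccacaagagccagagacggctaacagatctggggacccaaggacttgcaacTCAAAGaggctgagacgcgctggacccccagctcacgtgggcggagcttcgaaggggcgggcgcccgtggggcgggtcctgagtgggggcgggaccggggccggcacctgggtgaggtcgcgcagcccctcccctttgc
Shox2, chr3:66981772-66982021, minus strand: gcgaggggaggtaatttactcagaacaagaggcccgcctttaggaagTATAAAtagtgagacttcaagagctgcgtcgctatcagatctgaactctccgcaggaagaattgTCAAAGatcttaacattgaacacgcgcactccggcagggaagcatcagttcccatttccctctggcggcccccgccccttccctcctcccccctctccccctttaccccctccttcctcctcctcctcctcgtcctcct
Synpo2, chr3:123236150-123236399, minus strand: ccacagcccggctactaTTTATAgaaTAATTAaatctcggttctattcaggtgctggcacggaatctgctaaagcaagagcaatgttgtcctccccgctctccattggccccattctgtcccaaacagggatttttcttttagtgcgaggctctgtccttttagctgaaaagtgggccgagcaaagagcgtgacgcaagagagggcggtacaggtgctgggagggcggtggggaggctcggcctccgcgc
Adarb1, chr10:77418274-77418523, minus strand: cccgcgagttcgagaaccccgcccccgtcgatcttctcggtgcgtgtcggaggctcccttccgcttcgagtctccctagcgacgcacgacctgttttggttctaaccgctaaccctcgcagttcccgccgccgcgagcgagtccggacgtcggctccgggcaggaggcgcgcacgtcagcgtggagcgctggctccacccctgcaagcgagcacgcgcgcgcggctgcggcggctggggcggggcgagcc

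The 10 genes have 15 promoter windows in that table. CTTTGA was found in 3 of the 15 windows, those of Lef1, Prkcd and Shox2, and in 13.8% of all 32851 windows of the same length. TAATTA was found in 1 of the 15, of Synpo2, and in 4.84% of all windows. TATAAA was found in 6 of the 15, each of another gene, and in 12.4% of all windows. In Tnnt1 its first base lay at position -30 from the start, while in Prkcd and Shox2 it lay at -244 and -203. The Adarb1 window held none of the patterns and was rich in CG pairs, with 40, against 6 in Tnnt1 and a median of 6 over all windows. Its share of G and C was 72.0%, against 59.2% in Tnnt1. No pattern was common to all 10 genes.

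Levels are given in FPKM, in which fragment numbers are divided by transcript length and by sequencing depth. The unit was read from the values because the labels do not name it. Library totals lay between 428612 and 442836 FPKM. The spacing of low values gave a rough estimate of 20200000 to 21200000 fragments per library. Most low values of single-transcript genes did not fall near whole-read multiples, so this depth is uncertain. Pearson correlations of log2 levels between libraries, across 17630 genes that are not independent replicates, lay between 0.972 and 0.981.

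All 10 genes were highest in replicate 3, by a median of 5.60-fold over the mean log2 level of the other libraries. Prkcd, a kinase of the calcium-independent branch of its family, showed the largest difference and Adarb1, an enzyme that edits adenosine to inosine in RNA, the smallest. Differences compare log2(FPKM + 0.1) of 1 library with the average of the remaining 3, and replicates 1, 2 and 4 provide the only measure of spread. At a difference of 1 or more, that is 2-fold, 10 of 10 genes were higher in replicate 3, while 2.72% of all 17630 genes were. At a difference of 2 or more, 8 of the 10 genes were higher, against 0.63% of all genes. Since the genes were chosen for this, nothing is read from these counts. In these tissue pieces, fewer cells of a type and less RNA per cell cannot be told apart.

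**Figure D1:**
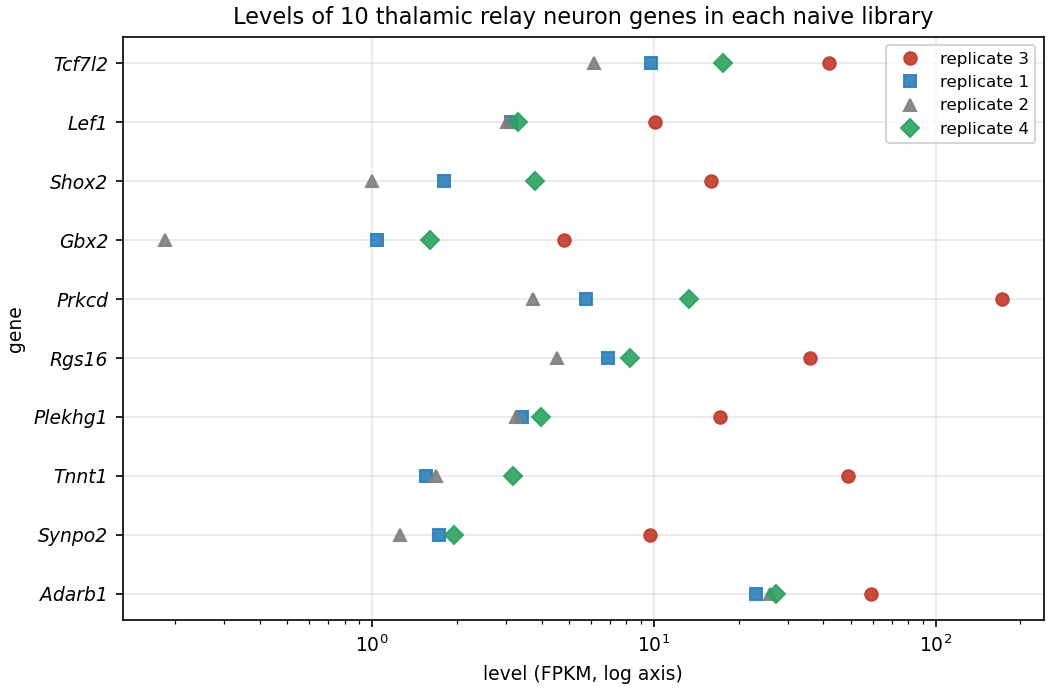
Level of each of the 10 genes in the 4 naive libraries, in FPKM on a log axis, with 1 point per library. The red circle of replicate 3 is the rightmost point of every gene, and the green diamond of replicate 4 is second in each.

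Among the transcription factors, Tcf7l2, a nuclear effector of Wnt signalling, lay at 42.0 FPKM in replicate 3, against 9.79, 6.14 and 17.6 FPKM in replicates 1, 2 and 4. Replicate 4 stood between replicate 3 and the other pair. The log2 difference of replicate 3 was 2.03, and the SD of the log2 levels of replicates 1, 2 and 4 was 0.75.

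Lef1, its relative in the same family, lay at 10.1 FPKM in replicate 3, against 3.12, 3.01 and 3.31 FPKM in replicates 1, 2 and 4. The 3 lower libraries were nearly level with each other, with an SD of 0.07 on the log2 scale. This was the smallest spread of the 10 genes, and the difference of replicate 3 was 1.65.

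Shox2, a homeodomain factor, lay at 15.9 FPKM in replicate 3, against 1.81, 1.00 and 3.80 FPKM in replicates 1, 2 and 4. The lower libraries were ordered as for Tcf7l2. The difference of replicate 3 was 2.99 and the SD of the others 0.92. Rsrc1, which overlaps the start of Shox2, had a difference of 0.42 in the same library.

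Gbx2, another homeodomain factor, was the least abundant of the genes. It lay at 4.82 FPKM in replicate 3, against 1.05, 0.184 and 1.61 FPKM in replicates 1, 2 and 4. From the transcript length and the spacing of low values, these levels correspond to roughly 208 fragments in replicate 3 and 47, 8 and 71 in replicates 1, 2 and 4. Fragment numbers depend on the uncertain depth estimate, and by them the low value of replicate 2 rests on few fragments. The difference of replicate 3 was 2.58, under 2 times the SD of 1.36 among the others, and Gbx2 was the only one of the 10 of which that held.

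Among the signalling genes, Prkcd lay at 172 FPKM in replicate 3, against 5.77, 3.72 and 13.4 FPKM in replicates 1, 2 and 4. In replicate 3 it was at percentile 98.3 of the genes kept, against 53.3, 44.2 and 71.5 in replicates 1, 2 and 4. Its difference of 4.68, or 25.6-fold, was the second largest of all 17630 genes in that library, with an SD of 0.92 among the others. Prkcd alone supplied 46.8% of the summed excess of the 10 genes in replicate 3, which was 351 FPKM over the mean of the others.

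Rgs16, which speeds the switching off of G protein alpha subunits, lay at 35.7 FPKM in replicate 3, against 6.90, 4.55 and 8.22 FPKM in replicates 1, 2 and 4. Its difference was 2.47 with an SD of 0.43 among the others. Plekhg1, which carries the domain of an exchange factor for small GTPases, lay at 17.2 FPKM in replicate 3, against 3.41, 3.24 and 3.98 FPKM in replicates 1, 2 and 4. Its lower libraries were close together, with an SD of 0.15, and the difference was 2.25.

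Of the cytoskeletal genes, Tnnt1 lay at 48.8 FPKM in replicate 3, against 1.55, 1.68 and 3.17 FPKM in replicates 1, 2 and 4. Its difference was 4.52, or 23.0-fold, the third largest of all genes, with an SD of 0.54 among the others. It stood at percentile 91.8 of the genes kept in replicate 3, against percentiles 31.6, 32.1 and 42.0 in replicates 1, 2 and 4. Synpo2, an actin-binding protein of the synaptopodin family, lay at 9.69 FPKM in replicate 3, against 1.73, 1.26 and 1.96 FPKM in replicates 1, 2 and 4. It was 5.67-fold higher in replicate 3, and the SD of the others was 0.31.

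Adarb1 lay at 58.9 FPKM in replicate 3, against 23.1, 25.8 and 27.1 FPKM in replicates 1, 2 and 4. It was the most abundant of the genes outside replicate 3 and showed the smallest difference, at a log2 difference of 1.22 and an SD of 0.12 among the others. By size of the difference it ranked 326 of 17630 genes, whereas Lef1 ranked 179 and Tcf7l2 ranked 111.

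The difference was uneven from gene to gene. Folds ran between 2.32 for Adarb1 and 25.6 for Prkcd, an 11.0-fold range, and the SD of the 10 log2 differences was 1.12. Prkcd and Tnnt1 exceeded 4 on the log2 scale, 6 genes lay between 2 and 4, and Lef1 and Adarb1 lay between 1 and 2. Without Prkcd and Tnnt1, set aside after their values were seen, the SD was 0.57 and the largest difference 2.99. Across the 10 genes the difference tended to be smaller where the level outside replicate 3 was higher (Spearman correlation -0.47, n = 10 genes). This is a description only, because the genes share their libraries and the level outside replicate 3 enters the difference itself.

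**Figure D2:**
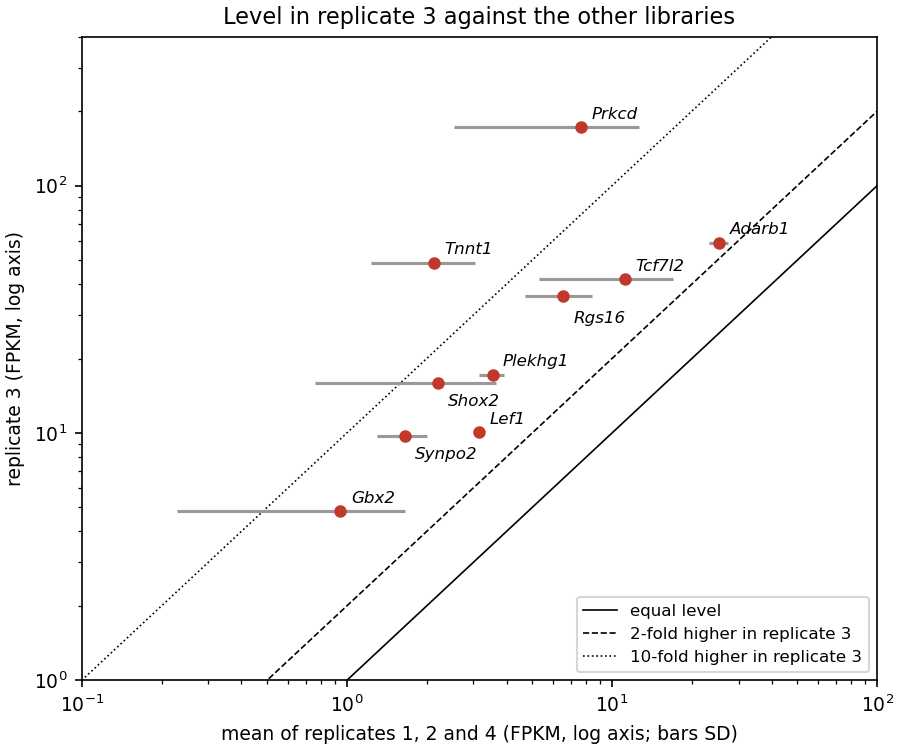
Level of each gene in replicate 3 against the mean of replicates 1, 2 and 4, both in FPKM on log axes, with bars for the SD of these 3 libraries and lines for equal, 2-fold and 10-fold levels. Prkcd and Tnnt1 lie above the 10-fold line at 172 and 48.8 FPKM, and Adarb1 lies nearest the 2-fold line.

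Ratios between genes within a library show the same unevenness without any reference library. Prkcd stood to Tnnt1 at 3.52 in replicate 3, against 3.72, 2.21 and 4.21 in replicates 1, 2 and 4, so this ratio in replicate 3 lay inside the range of the others. Rgs16 stood to Synpo2 at 3.69 in replicate 3, against 3.98, 3.60 and 4.20 in replicates 1, 2 and 4, also within that range. Prkcd stood to Tcf7l2 at 4.09 in replicate 3, against 0.589, 0.606 and 0.759 in replicates 1, 2 and 4, a ratio outside the range of the others. Adarb1 stood to Tnnt1 at 1.21 in replicate 3, against 14.9, 15.3 and 8.53 in replicates 1, 2 and 4, again outside it. The pairs Prkcd with Tnnt1 and Rgs16 with Synpo2 therefore had ratios within 1.90-fold and 1.16-fold over the 4 libraries, and the other pairs of this paragraph varied by 6.95-fold and 12.7-fold. The pairs were chosen after their values were seen.

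Each library was set against the mean of its others in the same way. The 10 genes had a median difference of 2.49 in replicate 3. The corresponding medians of replicates 1, 2 and 4 were -0.74, -1.55 and -0.31, while the median of all genes lay within 0.05 of 0 in each. Of the 10 genes, 3 were 2-fold lower in replicate 1 (2.88% of all genes), 7 in replicate 2 (2.27% of all genes) and 0 in replicate 4 (2.53% of all genes). None of the 10 was 2-fold higher in replicate 1, 2 or 4, against 2.34%, 2.44% and 1.97% of all genes. These negative values follow in part from replicate 3 being among the libraries on the other side of the difference.

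**Figure D3:**
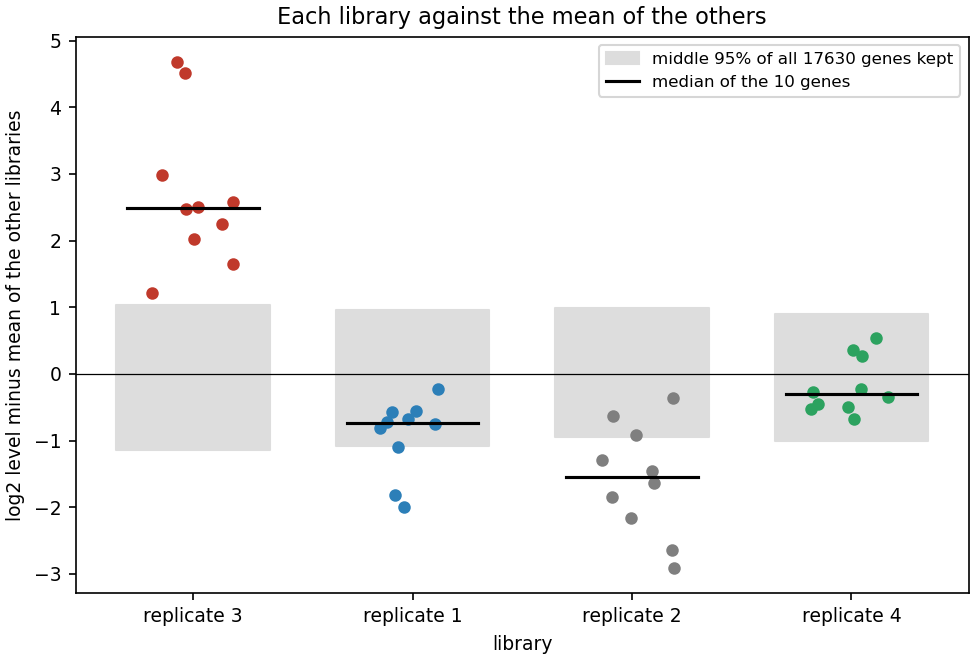
Difference of each library from the mean of the other libraries, in log2(FPKM + 0.1), for the 10 genes (points) with their median (line) and the middle 95% of all genes kept (grey). All points of replicate 3 lie above the grey band, and those of replicate 4 lie within it.

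Leaving replicate 3 aside, replicate 4 was highest of the remaining libraries for 10 of 10 genes, against 30.1% of all genes and 37% of the 479 genes 2-fold higher in replicate 3. Of those 479, only 99 averaged at least 1 FPKM, as all of the 10 genes did, so the sets are unlike in level. The 10 genes were also chosen on values of these same libraries, so nothing is read from the counts of this paragraph. Replicate 1 was above replicate 2 for 8 of 10 genes, the exceptions being Tnnt1 and Adarb1, against 44.3% of all genes. Replicate 3 highest with replicate 4 second held for 10 of 10 genes and for 8.59% of all genes. The full order 3, 4, 1, 2 was thus shown by 8 genes and by 3.16% of all genes. Replicate 4 exceeded the mean log2 level of replicates 1 and 2 by a median of 0.74, and 4 of 10 genes passed 2-fold, against 2.31% of all genes. Correlations between genes were not computed across 4 libraries.

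The genes differed in how far replicate 4 stood up. As a gain, the level of a library minus the mean of replicates 1 and 2 was taken, in FPKM, a measure chosen after the values were seen. For Tcf7l2 the gain of 9.63 FPKM in replicate 4 was 28.3% of the gain in replicate 3. For Gbx2 this share was 23.5% and for Shox2 it was 16.5%. In the remaining 7 genes it was under 10%, between 3.30% for Tnnt1 and 8.31% for Rgs16, with Prkcd at 5.15% and the fourth transcription factor, Lef1, at 3.50%. The gain in replicate 4 was larger than the gap between replicates 1 and 2 for 8 genes, and not for Synpo2 and Adarb1. With 1 library on each side these shares carry no error. The share is small where the gain in replicate 3 is large, and on the log2 scale the order differed. There replicate 4 exceeded the mean of replicates 1 and 2 by 1.58 for Gbx2, 1.51 for Prkcd, 1.43 for Shox2 and 1.17 for Tcf7l2. These were the 4 genes past 2-fold. Tnnt1 followed at 0.93, and Lef1 was lowest at 0.11.

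**Figure D4:**
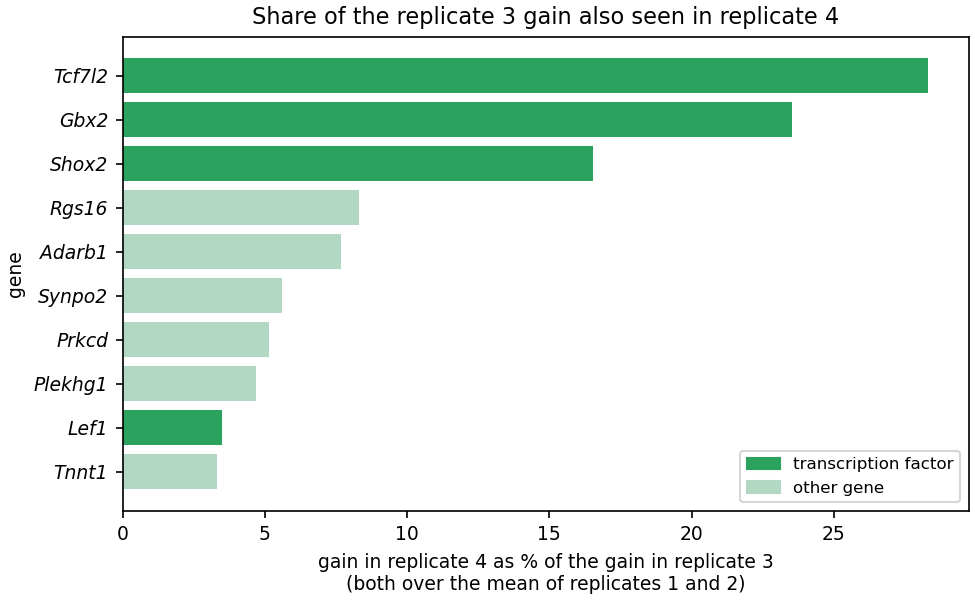
Gain of replicate 4 as a percentage of the gain of replicate 3, both over the mean of replicates 1 and 2 in FPKM, for each of the 10 genes, with transcription factors in dark green. Tcf7l2, Gbx2 and Shox2 lie between 16.5% and 28.3%, and the 7 other genes lie under 10%.

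Other thalamic genes, from a list of 17 drawn up with earlier results of these libraries known, were higher in replicate 3 for the most part, which is no independent evidence. Of these, 13 were higher and 4 lower, 7 were 2-fold higher (2.72% of all genes) and 1 was 2-fold lower (3.48% of all genes), with a median difference of 0.80, against -0.05 over all genes. Ramp3, which modifies receptors of the calcitonin family, lay at 61.4 FPKM in replicate 3, against 5.65, 3.45 and 8.06 FPKM in replicates 1, 2 and 4. Zic1, a zinc finger transcription factor, lay at 16.5 FPKM in replicate 3, against 3.59, 1.62 and 3.06 FPKM. Both had replicate 3 far above the others and replicate 2 lowest.

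Slc17a7, the vesicular glutamate transporter VGLUT1 of cortex and of some thalamic neurons, lay at 30.6 FPKM in replicate 3, against 0.830, 3.41 and 13.9 FPKM in replicates 1, 2 and 4. The gain in replicate 4 was 41.3% of that in replicate 3, above the share of any of the 10 genes. Cortical genes also stood high in replicate 4, where 4 of 10, Slc17a7, Tbr1, Emx1 and Neurod2, were 2-fold higher (1.97% of all genes). Tbr1, a cortical transcription factor, lay at 0.909 FPKM in replicate 4, against 0.155, 0.0949 and 0.153 FPKM in replicates 1, 2 and 3. Emx1 lay at 0.577 FPKM in replicate 4, against 0.0299, 0.102 and 0.184 FPKM in replicates 1, 2 and 3. Their part in the Slc17a7 level was not tested. Rora, Ntng1, Lhx9 and Adra2b, named after their values were seen, were the other genes 2-fold higher, at 2.60, 1.21, 1.51 and 1.95. Calb2 and Necab1, which encode calcium-binding proteins, were at -0.47 and -0.31, and Amotl1 was the gene 2-fold lower at -1.66. Lhx9, Calb2 and Slc17a7 also stand in other lists used here.

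Marker lists of neighbouring structures had medians under 0 in replicate 3. Over all genes, 2.72% were 2-fold higher in that library and 3.48% were 2-fold lower. Of 9 habenula genes, 0 were 2-fold higher in replicate 3 and 2 were 2-fold lower, Tac2 at -1.04 and Pou4f1 at -1.02. Of 11 genes of the thalamic reticular nucleus and prethalamus, 0 were higher and 2 lower by that measure, Lhx6 at -1.33 and Ecel1 at -1.08. Of 7 subthalamic nucleus genes, none passed in either direction and the median was -0.49. The 10 midbrain dopamine neuron genes had a median of -0.51 in replicate 3, against -0.22, 1.04 and -0.41 in replicates 1, 2 and 4, so replicate 2 stood apart there, with 6 of them 2-fold higher (2.44% of all genes). Without replicate 2 their median in replicate 3 was -0.17.

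Hypothalamic markers were mostly below the mean of the other libraries in replicate 3, but replicate 2 also stood apart in the medial list. Of the 10 medial hypothalamic genes, 9 were 2-fold higher in replicate 2 (2.44% of all genes), where their median difference was 2.46. In replicate 3 all 10 were lower, 8 of them 2-fold (3.48% of all genes), with a median of -1.87. Without replicate 2 the median was -1.17 with 6 genes 2-fold lower. Oxt, the oxytocin gene, lay at 1.11 FPKM in replicate 3, against 1.24, 44.0 and 3.28 FPKM in replicates 1, 2 and 4, so replicate 3 was close to replicate 1 and replicate 2 far above both. Of 7 lateral hypothalamic genes, 3 were 2-fold lower in replicate 3 (3.48% of all genes) and 1, Lhx9, was 2-fold higher (2.72% of all genes). Hcrt, the orexin precursor, lay at 2.60 FPKM in replicate 3, against 119, 7.72 and 91.4 FPKM in replicates 1, 2 and 4, so replicate 2 was low as well. Pmch, the precursor of melanin-concentrating hormone, lay at 54.9 FPKM in replicate 3, against 325, 257 and 429 FPKM in replicates 1, 2 and 4, and there replicate 3 alone was low. Of the 6 parasubthalamic markers, Tac1, the substance P precursor, was at -0.85 and Adcyap1, the PACAP precursor, at -0.72, while Cck was 2-fold higher at 1.03, though no gene of the list was without replicate 1. Adcyap1 was at 26.2 FPKM in replicate 3, against 58.1, 33.0 and 42.1 FPKM in replicates 1, 2 and 4, the lowest level being that of replicate 3. All 6 parasubthalamic markers were present in replicate 3, and 4 of them were lower there and 2 higher.

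**Figure D5:**
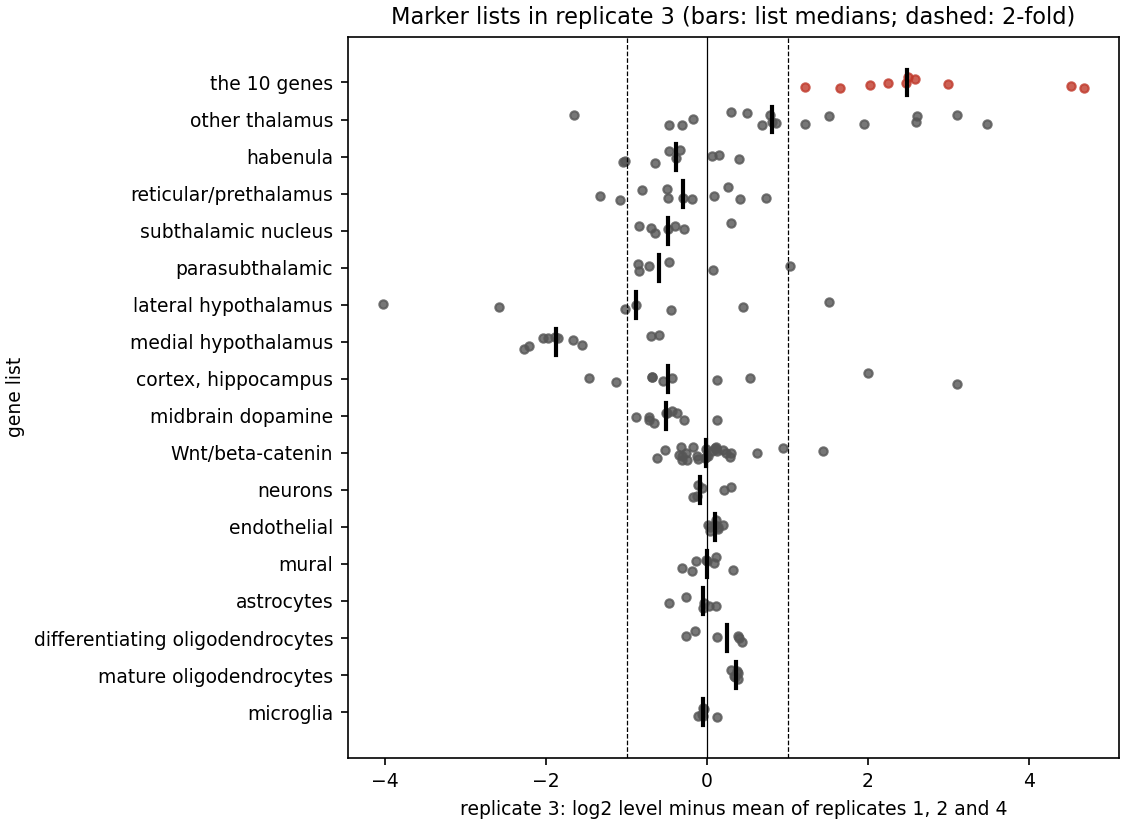
Difference of replicate 3 from the mean of replicates 1, 2 and 4, in log2(FPKM + 0.1), for the genes of each marker list that passed the filter, with list medians as bars and 2-fold as dashed lines. The 10 thalamic genes have a median of 2.49 and the medial hypothalamic genes of -1.87, and the non-neuronal lists lie within 2-fold.

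The cell types that share some of the 10 genes varied less. All 8 endothelial markers lay between 0.01 and 0.20 in replicate 3, and the 8 mural and smooth muscle markers between -0.30 and 0.32. The 6 markers of differentiating oligodendrocytes had a median of 0.25 and a summed level of 254 FPKM in replicate 3, against 176, 193 and 230 FPKM in replicates 1, 2 and 4. The 6 mature oligodendrocyte markers were all higher in replicate 3, between 0.30 and 0.39. Neuronal markers had a median of -0.09, astrocyte markers of -0.04 and microglial markers of -0.05. None of these genes passed 2-fold, and the part of the oligodendrocyte values in the level of Tcf7l2 was not tested. Of 10 cortical and hippocampal genes, 2 were 2-fold higher in replicate 3 (2.72% of all genes), Slc17a7 and Rasgrp1. Another 2 were 2-fold lower (3.48% of all genes), Neurod6 at -1.47 and Lamp5 at -1.13. Prox1 was at 0.53, and without replicate 4 the list's median was -0.04, against -0.49 with it.

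The Wnt and beta-catenin pathway was described through 29 further genes, of which 27 passed the filter. Of these, 1 was 2-fold higher in replicate 3 (2.72% of all genes) and 0 were 2-fold lower (3.48% of all genes), so nothing is read from these counts. The median was -0.01, against -0.05 over all genes. The 1 gene was Wnt3, a Wnt ligand, at 6.95 FPKM in replicate 3, against 2.19, 2.49 and 2.85 FPKM in replicates 1, 2 and 4. The pathway's common target Axin2 was at 0.30, the receptor Fzd10 at 0.95, the feedback inhibitor Nkd1 at 0.62 and beta-catenin itself, Ctnnb1, at 0.24. The family members Tcf7 and Tcf7l1 were at -0.12 and -0.13. Within the TCF and LEF family, Tcf7l2 and Lef1 were thus the members past 2-fold.

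Among further protein kinase C genes, Prkch was 2-fold higher at 1.36, with 5.66 FPKM in replicate 3, against 2.65, 1.61 and 2.30 FPKM in replicates 1, 2 and 4. Prkcz was at 0.30 and Prkca at -0.45. Of the RGS genes close to Rgs16, 5 of 8 passed the filter and none passed 2-fold, with Rgs4 nearest at 0.86 and Rgs8 at 0.78. Of the editing enzymes, Adar was at -0.15 and Adarb2 at 0.79. Of 5 troponin genes that passed the filter, none passed 2-fold, the highest being Tnni3 at 0.82. Gbx1 was at 0.36 and Synpo at -0.35, and the 3 Plekhg relatives lay within 2-fold.

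Genes most like the 10 were sought among the 13044 genes averaging at least 1 FPKM. Log2 levels were centred on each gene's mean over the 4 libraries, and likeness was the root mean square difference from the median profile of the 10 genes. That profile stood at 1.86 for replicate 3, against -0.55, -1.16 and -0.23 for replicates 1, 2 and 4. Among the 10 genes Rgs16 lay nearest their median profile, at 0.04, and Prkcd farthest, at 1.00.

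The nearest other genes were Ptpn3, a tyrosine phosphatase, at 0.14 and Zic1 at 0.22, followed by Rasgrp1, an exchange factor for Ras, at 0.30. Next came Amd2 at 0.30, Bok, of the BCL2 family, at 0.36, Eps8l2 at 0.37, Gabra4, the alpha4 subunit of GABA-A receptors, at 0.38, Fam19a4 at 0.42, Rasd1 at 0.42 and Ramp3 at 0.43. Ptpn3 lay at 16.4 FPKM in replicate 3, against 2.39, 1.68 and 2.92 FPKM in replicates 1, 2 and 4. Gabra4 lay at 33.5 FPKM in replicate 3, against 10.1, 8.41 and 10.7 FPKM. Amd2 has a near-identical relative, so its level is uncertain. Under 0.5 there were 15 of the other genes, or 0.115% of them, and 6 of the 10 genes, while the median distance of all genes was 1.17. The profile was built from the 10 genes themselves, which were chosen for replicate 3. They lie near it by construction, and nothing is read from their share under 0.5.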

How the data were processed

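Per the labels' protocols, TRIzol RNA went into mRNA libraries for Illumina sequencing. The unit of the deposited values was inferred to be FPKM, since no label or header gives one. The authors give GRCm38 as assembly, per the submitters' processing notes, while aligner, quantifier, annotation and strand setting were not given in the sources used here. In single-transcript genes 18.1% to 25.6% of low values fell within 0.05 of whole-read multiples. Values without such spacing would in part fall there too, so the depth estimate is uncertain. Reads were not recovered, counting intervals were not computed, and fragment numbers are approximate.

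Replicate 3 was identified by its sample title, its column being headed with a letter. All 4 libraries form 1 group. Symbols matched 22022 of 22036 Ensembl identifiers, and 3008 entries have none. Every per-sample column was used. Values of some list genes are not reported here.

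The 17630 genes averaging at least 0.1 FPKM were used, and each library was set against the average of the rest on log2(FPKM + 0.1), which understates differences of low genes. The computation was checked on simulated data. No test between groups was run, since there is 1 group; Dixon's outlier criterion was applied to single values for the closing section. The members and lists were chosen with earlier results of these data known. Named genes were the members, the 3 list genes with the largest difference in replicate 3, relatives of the members, the 10 genes most like them, and genes said to be named after their values were seen, to which belong Calb2, Necab1, Lamp5, Prox1, Neurod2, Tbr1, Emx1, Axin2, Ctnnb1, Tcf7, Tcf7l1 and Adcyap1. Alternatives changed the added value, the filter, the scaling, the reference and the libraries included. The tools were matplotlib 3.10.9, pandas 2.3.3 and numpy 2.4.6 under Python 3.11.15.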

Additional observations from a re-analysis of the deposited data

Results flagged for a closer look

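Within a group of 4 libraries, a value was singled out when the gap between its highest or lowest library and the nearest other took up more of the whole range on the log2 scale than Dixon's 95% critical value for 4 samples allows. This held for 6 of 106 values taken over the 10 genes, their most similar genes, named list genes and list medians, all 6 with replicate 3 as the distant library. In values not chosen for their pattern chance flags about 1 in 20, but most of these were chosen for their difference in replicate 3, so that rate does not apply and nothing is read from the count. Among the 10 genes it held for Lef1 at 0.922, Plekhg1 at 0.879 and Adarb1 at 0.831, whose lower libraries lay close together. Prkcd and Tnnt1 did not pass, at 0.669 and 0.798. In both, replicate 4 lay above replicates 1 and 2, as it did in all 10 genes. Of the most similar genes it held for Eps8l2 at 0.945 and Rasgrp1 at 0.837. The astrocyte glutamate transporter Slc1a3, at 0.836, was low in replicate 3, at 55.7 FPKM, against 78.3, 78.6 and 74.3 FPKM in replicates 1, 2 and 4.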

How the results depend on the processing

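The count of 10 genes 2-fold higher in replicate 3 was 10 under each of the 10 alternatives, and no gene's difference changed sign. Over these alternatives single differences ran between 1.15 and 5.18, and 97 of 100 moved by less than the spread of the lower libraries. Much of that count was fixed in advance. The filter does not enter a gene's own difference. Leaving out 1 lower library, or taking the median of the lower libraries, cannot shift it by their spread. Only the added value and the scaling could do so. The median difference of 2.49 was 2.01 with 1 added before the logarithm, by construction, and between 2.21 and 2.64 without replicate 1, 2 or 4. The SD over the genes of 1.12 lay between 1.08 and 1.25 without them. The number of all genes 2-fold higher, 479, was 80 with 1 added, 778 with 0.01 added and 99 with a filter at 1 FPKM, and lay between 478 and 528 without a replicate. The median difference of replicate 4, -0.31, was 0.74 without replicate 3, an alternative chosen after seeing the data. Leaving out 1 library at a time in the marker lists, also chosen after seeing the data, turned the sign of 3 medians near 0: the Wnt list lay between -0.024 and 0.022, the microglial list between -0.11 and 0.0063 and the mural list between -0.078 and 0.087. No paired analysis was possible because there is 1 group. With 1 high library, no p-value can be given, and the spread of replicate 3 itself is unknown.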
